A study of Schizosaccharomyces pombe with 24 samples.

Results

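Progress through the fission yeast cell cycle rests on Cdc2, the cyclin-dependent kinase (CDK) of *S. pombe*, which is active only when bound to a cyclin and is held back before mitosis by phosphorylation on a tyrosine. The kinase Wee1 places that phosphate and the phosphatase Cdc25 removes it, so the balance of the pair sets when a cell enters mitosis, and Cdr2 restrains Wee1 as cells grow. Exit from mitosis and the low CDK activity of G1 depend on the anaphase-promoting complex (APC/C), which destroys cyclin with the help of the activators Slp1 and Ste9, and on the CDK inhibitor Rum1. The 10 genes described here are *cdc2*, the cyclin genes *cdc13*, *cig1* and *puc1*, the entry regulators *cdc25*, *wee1* and *cdr2*, and *rum1*, *ste9* and *slp1*. They were chosen by name from the 5195 genes of the deposited tables, 9 of them by the symbol given there. The gene *ste9* is listed under its other name, *srw1* (SPAC144.13c), and was matched through the RefSeq gene table.

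The RNA came from 24 libraries, 3 for each of 8 genotypes, and was selected with oligo(dT) before sequencing. The H2B mutants each carry 1 substitution found in human cancers in *htb1*, the gene of histone H2B: *htb1-D67N*, *htb1-E112K*, *htb1-E75Q*, *htb1-E34K*, *htb1-P102L* and *htb1-G52D*. The remaining libraries are labelled *set1*Δ, for loss of the H3K4 methyltransferase Set1, and WT. By the strain list of the study every strain carries *leu1-32* and *ura4-D18*. The strains with *htb1-G52D* and *htb1-P102L* are h-, while those with *htb1-D67N*, *htb1-E112K*, *htb1-E75Q* and *htb1-E34K* are h+ with *ade6-M210* and a kanMX6 marker at *htb1*, and WT is h+ with *ade6-M216* and no such marker. Which strain gave the libraries labelled *set1*Δ is not certain from the study's text. The allele of *htb1* and these other differences between strains cannot be told apart. No drug treatment is given in the labels, and the 3 libraries of a genotype are described by the study as independent biological repeats of 1 strain.

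The libraries held between 18935513 and 28181070 counts. The label *set1*Δ is not borne out by the counts, since *set1* had 336, 362 and 412 counts in those libraries, against 20, 20 and 32 counts in WT. They are therefore called the libraries labelled *set1*Δ, and every direction drawn from them rests on that label. Counts of *ura4*, the gene that *ura4-D18* marks as deleted, were found in *htb1-G52D* replicate 1 (1382), *htb1-P102L* replicate 1 (712) and WT replicate 3 (865), with at most 2 in any other library. The *htb1* transcript was 11.2-fold, 6.495-fold and 5.54-fold that of WT in *htb1-D67N*, *htb1-E75Q* and *htb1-E112K*. In *htb1-P102L* it was 1.57-fold that of WT (adjusted p = 0.00948, edgeR). In a bulk culture, fewer cells in a phase of the cell cycle and less RNA per cell cannot be told apart.

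*slp1* and *cig1* carried the largest differences from WT among the 10 genes, and they did not move together. The cyclin gene *cig1* fell in 4 of the 6 H2B mutants, reaching 2.55-fold below WT in *htb1-D67N*. The APC/C activator gene *slp1* was 2.88-fold lower in *htb1-E75Q* and 2.69-fold lower in *htb1-P102L*, but 1.64-fold higher in *htb1-D67N*. The other APC/C activator gene, *ste9*, rose in 5 of the 7 genotypes, and the G1 cyclin gene *puc1* rose in *htb1-D67N*. *wee1* and *rum1* passed the edgeR test against WT in 0 of them, with an unadjusted p under 0.05 in 1 and 2. Both genes passed in some genotypes under other settings, which are given below.

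Each mutant was compared with WT on the counts of 3 libraries a side, and edgeR's quasi-likelihood test was used. "Rose" and "fell" are used for a Benjamini-Hochberg adjusted p under 0.05 over all genes tested, and a gene is called differentially expressed (a DEG) when the change was also at least 2-fold. All 10 genes passed the filter on low counts in every comparison, their counts ranging from 39 for *puc1* to 2589 for *cdc13*. Of the 70 tests, 25 passed the adjusted p, and 6 were DEGs. The 7 comparisons share the WT libraries, so a WT level that lay high or low by chance would enter all of them.

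The number of genes that passed was set against the share of all genes that did. In *htb1-P102L*, 7 of the 10 genes passed (2 rose and 5 fell), against 38.1% of all genes tested, and 1 was a DEG, against 13.4%. In *htb1-G52D*, 5 passed (1 rose and 4 fell), against 43.4% of all genes. None of the 10 was a DEG in *htb1-G52D* by edgeR, against 21.5% of all genes. There, 9 of the 10 had an unadjusted p under 0.05, against 52.1% of all genes, and DESeq2 called 1 DEG. In *htb1-E75Q*, 2 passed, both lower, against 36.1%, with 1 DEG, against 21.5%. The share of the 10 genes that passed was above that of all genes in *htb1-P102L* and *htb1-G52D* and below it in *htb1-E75Q*, and with 10 genes no more is read from it.

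In *htb1-D67N*, 4 of the 10 genes passed (3 rose and 1 fell), against 35.8% of all genes tested, and 2 were DEGs, against 15.3%. In *htb1-E112K*, 4 passed (3 rose and 1 fell), against 27.8%, with 1 DEG, against 10.3%. In the libraries labelled *set1*Δ, 3 passed (2 rose and 1 fell), against 26.4%, with 1 DEG, against 6.46%. In *htb1-E34K*, edgeR called 0 of the 10 genes, against 0.103% of all genes. There, 5 of the 10 had an unadjusted p under 0.05, against 18.5% of all genes, and DESeq2 also called 0. The replicate spread was widest in that comparison, with a biological coefficient of variation of 0.276 against 0.141 to 0.25 in the others. The median log2 fold change of the 10 genes lay between -0.41 in *htb1-G52D* and 0.23 in *htb1-D67N*, while the median of all genes lay between 0.01 and 0.09.

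**Figure D1:**
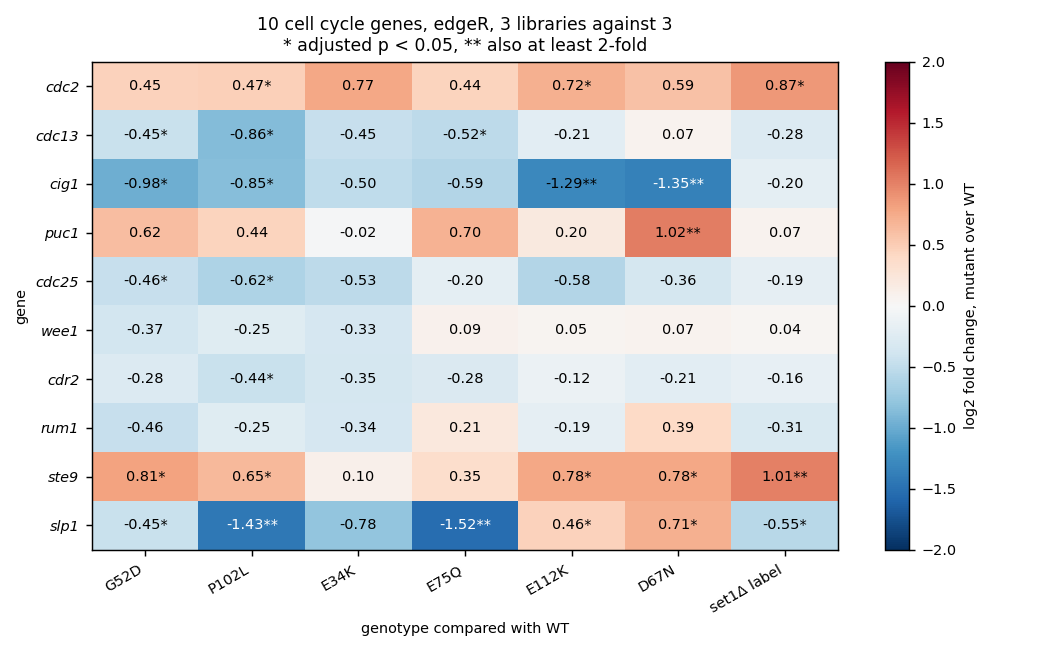
Log2 fold change of each of the 10 genes (rows) in each genotype over WT (columns), from edgeR with TMM scaling, 3 libraries against 3; blue is lower and red is higher than WT. The *slp1* row runs from -1.52 in *htb1-E75Q* to 0.71 in *htb1-D67N*, and under total-count scaling the -0.45 of *slp1* and the -0.45 of *cdc13* in *htb1-G52D* change sign.

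How the libraries were scaled bears on the direction of the smaller changes. TMM (trimmed mean of M values) centres most genes near 0. Scaled by total counts instead, the median gene was higher than in WT by 0.77 (log2) for *htb1-G52D* and 0.75 for *htb1-E75Q*. The shift was 0.52 for *htb1-E34K*, 0.48 for *htb1-D67N*, 0.41 for *htb1-E112K*, 0.40 for *htb1-P102L* and 0.21 for the libraries labelled *set1*Δ. The share of DEGs that were higher was 60.5% to 79.9% under TMM, apart from *htb1-E34K* with 5 DEGs, and 91.6% to 96.8% under total counts in all 7 comparisons. Changes are reported relative to the TMM scaling, and those that turn under total counts are named. Relative to the median gene under total counts, all 25 changes that passed kept their direction. Taking off the median nearly restores the centring of TMM, so this result was largely given in advance and adds no support. The 100 most abundant genes held 53.8% to 65.4% of the counts of a library, and their part in this shift was not tested.

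*cdc2* (SPBC11B10.09), the catalytic subunit, was low among these genes in WT, at 2.71 ± 0.31 FPKM (SD, n = 3). It had 6.03 ± 2.45 FPKM in *htb1-G52D* and 5.73 ± 0.56 FPKM in the libraries labelled *set1*Δ (SD, n = 3 each). FPKM are the deposited fragments per kilobase of transcript, scaled by the mapped reads, and allow levels of different genes to be set side by side. They are not TMM-scaled and hold the shift described for total counts, so they are not read as differences between genotypes. On that scale the WT means were 20.9 ± 0.68 for *cig1*, 19.4 ± 2.64 for *cdc13*, 18.6 ± 1.37 for *cdr2*, 9.72 ± 2.91 for *cdc25* and 8.65 ± 2.90 for *wee1* (SD, n = 3). They were 4.82 ± 0.95 for *slp1*, 3.80 ± 0.20 for *rum1*, 1.79 ± 0.16 for *ste9* and 0.57 ± 0.04 for *puc1*, the scarcest. All other levels below are CPM (counts scaled by the TMM-corrected total of their own library), which compare 1 gene between libraries. The level of *cdc2* was 10.1, 8.60 and 10.5 CPM in the libraries labelled *set1*Δ and 8.64, 8.57 and 9.65 CPM in *htb1-E112K*, against 5.11, 6.36 and 5.26 CPM in WT. Neither group overlapped WT. *cdc2* rose by a log2 fold change of 0.87 (SE 0.16, adjusted p = 0.00267, edgeR) in the libraries labelled *set1*Δ and by 0.72 (SE 0.17, adjusted p = 0.0109) in *htb1-E112K*. The *htb1-E112K* call was lost without *htb1-E112K* replicate 3 (adjusted p = 0.0552). In *htb1-P102L* the change of 0.47 (SE 0.16, adjusted p = 0.0383) passed with only WT replicate 2 left out among the 6 libraries, the adjusted p being 0.0532 to 0.149 without any of the others. The log2 fold change of *cdc2* was 0.44 to 0.77 in the mutants that did not pass. In *htb1-G52D* it averaged 7.61 ± 1.28 CPM (SD, n = 3), with a change of 0.45 (SE 0.20, adjusted p = 0.0955, edgeR). In the RefSeq annotation 2 non-coding RNAs on the opposite strand cover 31.3% and 18.1% of *cdc2*, and whether the counting used the strand is not given in the sources used here.

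**Figure D2:**
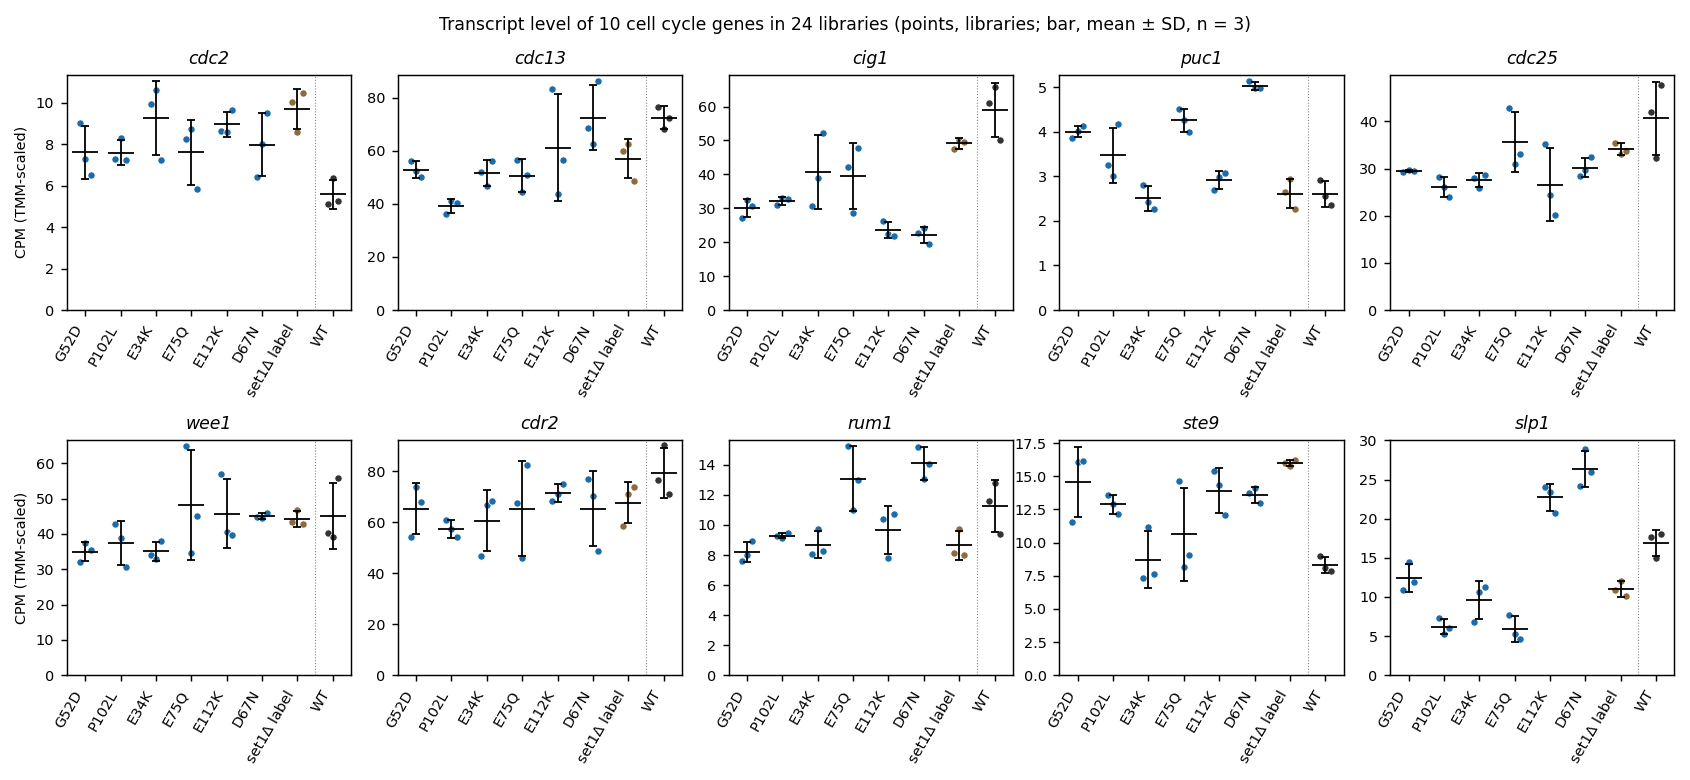
CPM (vertical axis, TMM-scaled, starting at 0) of the 10 genes in 8 genotypes, WT at the right of each panel; points are libraries and bars are mean ± SD (n = 3). The *slp1* panel shows *htb1-E112K* and *htb1-D67N* above WT and the other 5 genotypes below it, and the *cig1* panel shows *htb1-E112K* and *htb1-D67N* lowest.

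*cdc13* (SPBC582.03) encodes the B-type cyclin that, with Cdc2, drives mitosis. It had 36.1, 41.2 and 40.3 CPM in *htb1-P102L*, against 76.7, 68.1 and 72.5 CPM in WT, so the groups did not overlap. It fell there, with a log2 fold change of -0.86 (SE 0.12, adjusted p = 0.000249, edgeR), and it passed with any 1 library left out. It also fell in *htb1-E75Q* at -0.52 (SE 0.19, adjusted p = 0.0464) and in *htb1-G52D* at -0.45 (SE 0.13, adjusted p = 0.0187), and these turn to 0.11 and 0.23 under total counts. The *htb1-G52D* call was lost without WT replicate 1 (adjusted p = 0.071) or *htb1-G52D* replicate 3 (0.0938). The *htb1-E75Q* call held only without *htb1-E75Q* replicate 1, the adjusted p being 0.0677 to 0.166 without any of the others. Under total counts the *htb1-P102L* change was -0.49 (adjusted p = 0.106). In *htb1-D67N*, *cdc13* stood at 72.5 ± 12.3 CPM, against 72.4 ± 4.31 CPM in WT (SD, n = 3 each; log2 fold change 0.07, SE 0.16). Set directly against each other in a fit of all libraries, *htb1-P102L* was at -0.89 against *htb1-D67N* (log2, SE 0.18, adjusted p = 0.000799).

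*cig1* (SPCC4E9.02) encodes a second B-type cyclin, which supports Cdc2 beside Cdc13. It had 22.6, 24.3 and 19.5 CPM in *htb1-D67N* and 26.3, 22.4 and 21.9 CPM in *htb1-E112K*, against 61.2, 65.8 and 50.2 CPM in WT. It had 27.0, 32.3 and 30.8 CPM in *htb1-G52D* and 30.8, 33.0 and 32.7 CPM in *htb1-P102L*. All 4 mutants lay wholly below WT. The log2 fold change was -1.35 (SE 0.15, adjusted p = 0.000108, edgeR) in *htb1-D67N* and -1.29 (SE 0.15, adjusted p = 0.000219) in *htb1-E112K*, both DEGs. It was -0.98 (SE 0.15, adjusted p = 0.000907) in *htb1-G52D* and -0.85 (SE 0.13, adjusted p = 0.000511) in *htb1-P102L*. All 4 calls held with any 1 library left out. Under total counts the changes of *htb1-D67N* (-0.95, adjusted p = 0.00463) and *htb1-E112K* (-0.90, adjusted p = 0.018) still passed but were no longer 2-fold, and those of *htb1-P102L* (-0.47, adjusted p = 0.124) and *htb1-G52D* (-0.31, adjusted p = 0.201) did not pass.

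In the remaining genotypes *cig1* did not pass. It averaged 39.5 ± 9.79 CPM in *htb1-E75Q* (log2 fold change -0.59, SE 0.22, adjusted p = 0.0564), 40.6 ± 10.9 CPM in *htb1-E34K* (-0.50, SE 0.22, adjusted p = 0.262) and 49.1 ± 1.51 CPM in the libraries labelled *set1*Δ (-0.20, SE 0.12, adjusted p = 0.247), against 59.1 ± 7.99 CPM in WT (SD, n = 3 each). Under total counts the values of *htb1-E75Q* and the libraries labelled *set1*Δ turn to 0.01 and 0.02. Compared directly, *htb1-D67N* was at -1.15 (log2, SE 0.18, adjusted p = 5.84e-05) against the libraries labelled *set1*Δ and *htb1-E112K* at -1.06 (SE 0.18, adjusted p = 0.000239), with 11.8% and 6.6% of all genes DEGs in these 2 pairs. *htb1-E112K* and *htb1-D67N* themselves differed by 0.09 (SE 0.18, adjusted p = 0.845), with overlapping libraries.

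*puc1* (SPBC19F5.01c) encodes a cyclin that acts in G1. It was the least counted of the 10 genes, with 39 to 133 counts per library. It had 5.14, 4.98 and 4.99 CPM in *htb1-D67N*, against 2.91, 2.56 and 2.35 CPM in WT, with no overlap. It rose there by 1.02 (SE 0.22, adjusted p = 0.00457, edgeR), at the edge of the 2-fold rule: the change was 0.94 without WT replicate 3, 0.97 without WT replicate 2 or *htb1-D67N* replicate 1, and 0.74 (adjusted p = 0.0222) with an offset for gene length. No other genotype passed. The values were 4.01 ± 0.13 CPM in *htb1-G52D* (adjusted p = 0.0554), 4.27 ± 0.26 CPM in *htb1-E75Q* (adjusted p = 0.0749) and 2.51 ± 0.28 CPM in *htb1-E34K* (adjusted p = 0.98), against 2.61 ± 0.28 CPM in WT (SD, n = 3 each). Under total counts *htb1-G52D* (1.29, adjusted p = 0.018) and *htb1-E75Q* (1.37, adjusted p = 0.0461) passed. The coding gene SPBP8B7.31 overlaps 6% of *puc1* on the opposite strand in RefSeq. The deposited counts and FPKM imply a length of 3453 bases for *puc1*, against 2492 in RefSeq, so the overlap that was counted may be larger.

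The regulators of mitotic entry changed less. *cdc25* (SPAC24H6.05), the activating phosphatase gene, had 28.2, 26.1 and 23.9 CPM in *htb1-P102L* and 29.2, 29.6 and 29.4 CPM in *htb1-G52D*, against 42.1, 32.2 and 47.6 CPM in WT. Neither mutant overlapped WT, whose own libraries spread widely. *cdc25* fell by 0.62 (SE 0.16, adjusted p = 0.00974, edgeR) in *htb1-P102L*, and the highest adjusted p with 1 library left out was 0.0497. It fell by 0.46 (SE 0.16, adjusted p = 0.0376) in *htb1-G52D*, a call that held only without WT replicate 2 and turns to 0.18 under total counts. The values of *htb1-P102L* under total counts were -0.28 with an adjusted p of 0.401. In *htb1-E112K* the change was -0.58 (SE 0.21, adjusted p = 0.0688; DESeq2 adjusted p = 0.0314), with 35.2, 24.4 and 20.2 CPM. Without the libraries with *ura4* counts, *cdc25* in *htb1-G52D* was at -0.33 (adjusted p = 0.0827).

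*wee1* (SPCC18B5.03), the inhibitory kinase gene, ran from -0.37 (log2, SE 0.16) in *htb1-G52D* to 0.09 (SE 0.25) in *htb1-E75Q*, with adjusted p between 0.095 and 0.874 (edgeR). It passed in 0 of the 7 genotypes by edgeR and by DESeq2, and in 1 at an unadjusted p under 0.05. With an offset for gene length added to the edgeR fit, it passed in *htb1-G52D* (-0.72, adjusted p = 0.00972) and *htb1-P102L* (-0.46, adjusted p = 0.0428). Its means were 34.9 ± 2.71 CPM in *htb1-G52D* and 48.2 ± 15.4 CPM in *htb1-E75Q*, against 45.1 ± 9.38 CPM in WT (SD, n = 3 each). In *htb1-E75Q* the libraries ran from 34.5 to 64.9 CPM, wider than any difference between means. *cdr2* (SPAC57A10.02), encoding the kinase that restrains Wee1, had 61.0, 57.2 and 54.0 CPM in *htb1-P102L*, against 76.6, 90.1 and 71.1 CPM in WT. It fell there by 0.44 (SE 0.13, adjusted p = 0.0214), without overlap, and the call was lost without WT replicate 2 (adjusted p = 0.072), *htb1-P102L* replicate 2 (0.0761) or replicate 3 (0.0762), while the change was -0.07 under total counts. In the other 6 genotypes *cdr2* was between -0.35 and -0.12 and did not pass.

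Since *cdc25* and *wee1* oppose each other on the same tyrosine, their counts were also set against each other within a library, where no scaling enters. This comparison was added after the data were seen. The log2 ratio of *cdc25* to *wee1* counts was -0.70, -0.73 and -0.97 in *htb1-E112K* and -0.65, -0.58 and -0.51 in *htb1-D67N*, against 0.06, -0.28 and -0.23 in WT. Both mutants lay wholly below WT, by 0.65 and 0.43 on average. *htb1-P102L* lay 0.37 below WT, again without overlap (-0.61, -0.58 and -0.37). *htb1-E34K* (a mean difference of -0.195) and the libraries labelled *set1*Δ (-0.22) also lay wholly below WT, if narrowly, with highest libraries of -0.282 and -0.286 and a lowest WT library of -0.281. The ratio thus lay below WT without overlap in 5 of the 7 genotypes. *htb1-E75Q* overlapped WT. *htb1-G52D*, in which *cdc25* fell, differed from WT in this ratio by only -0.10, and its libraries overlapped those of WT. In a 3 against 3 design the exact two-sided permutation test cannot go below p = 0.1, which is the value for these 5 genotypes. It was 0.6 for *htb1-G52D* and 0.3 for *htb1-E75Q*.

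**Figure D3:**
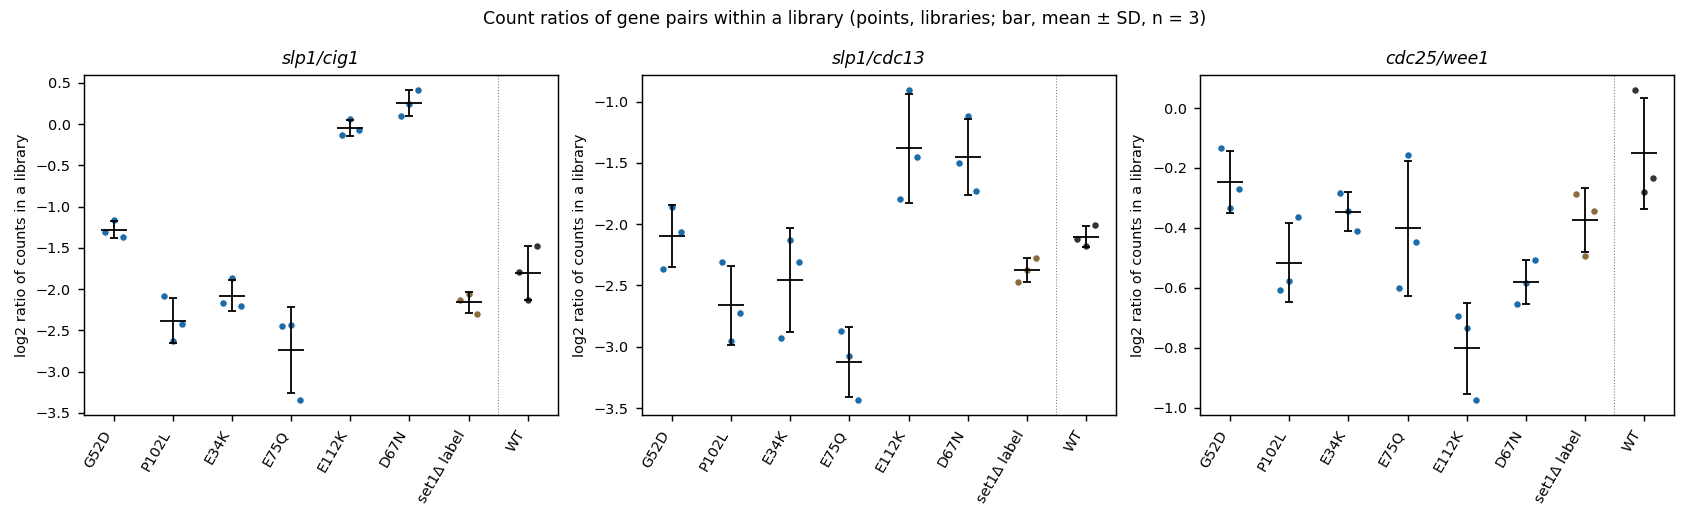
Log2 ratio of the counts of 2 genes in the same library (vertical axis, gene length not adjusted) for *slp1* to *cig1*, *slp1* to *cdc13* and *cdc25* to *wee1* in 8 genotypes, WT at the right; points are libraries and bars are mean ± SD (n = 3). The *slp1* to *cig1* ratio of *htb1-D67N* lies at 0.25 and that of *htb1-E112K* at -0.05, against -1.80 in WT.

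The genes that act at mitotic exit and in G1 separated. *rum1* (SPBC32F12.09) encodes the CDK inhibitor that keeps G1 cells from mitosis. In the edgeR fits of 3 libraries a side with TMM scaling, it passed against WT in 0 genotypes. Its log2 fold changes ran from -0.46 (SE 0.18, adjusted p = 0.0609, edgeR) in *htb1-G52D* to 0.39 (SE 0.17, adjusted p = 0.0952) in *htb1-D67N*. By DESeq2 it passed in *htb1-G52D* (adjusted p = 0.0465). Other edgeR settings also called it there: the gene-length offset (-0.57, adjusted p = 0.027) and the fit of all libraries (-0.46, adjusted p = 0.0259). Under total counts it passed in *htb1-D67N* (0.81, adjusted p = 0.043). It had 15.2, 13.04 and 14.1 CPM in *htb1-D67N*, 7.62, 7.99 and 8.92 CPM in *htb1-G52D* and 11.6, 12.8 and 9.39 CPM in WT. *htb1-D67N* lay above and *htb1-G52D* below WT without overlap. Set against each other in the fit of all libraries, *htb1-G52D* was at -0.79 (log2, SE 0.16, adjusted p = 0.000971) against *htb1-D67N* and at -0.67 (SE 0.16, adjusted p = 0.0113) against *htb1-E75Q*.

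*ste9* (SPAC144.13c) encodes the APC/C activator that works in G1 and targets mitotic cyclin. It had 16.0, 15.8 and 16.2 CPM in the libraries labelled *set1*Δ, against 8.97, 8.11 and 7.86 CPM in WT. It had 11.6, 16.1 and 16.1 CPM in *htb1-G52D*, 15.4, 14.3 and 12.1 CPM in *htb1-E112K*, 13.7, 14.1 and 12.95 CPM in *htb1-D67N* and 13.6, 12.9 and 12.2 CPM in *htb1-P102L*. Every library of these 5 genotypes lay above every WT library. *ste9* rose by 1.01 (SE 0.13, adjusted p = 0.000401, edgeR) in the libraries labelled *set1*Δ, 0.81 (SE 0.18, adjusted p = 0.00601) in *htb1-G52D*, 0.78 (SE 0.16, adjusted p = 0.0054) in *htb1-E112K*, 0.78 (SE 0.16, adjusted p = 0.0038) in *htb1-D67N* and 0.65 (SE 0.14, adjusted p = 0.00366) in *htb1-P102L*. All 5 calls held with any 1 library left out and under total counts.

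The DEG call of *ste9* in the libraries labelled *set1*Δ lies at the edge of the rule, since the change was 0.96 without WT replicate 3, 0.98 without WT replicate 2 and 0.99 without the labelled replicate 3. The rise in *htb1-G52D* was 0.52 (adjusted p = 0.0711) with an offset for gene length. In *htb1-E75Q* (0.35, SE 0.25, adjusted p = 0.289) and *htb1-E34K* (0.10, SE 0.24, adjusted p = 0.831) *ste9* did not pass, and the libraries overlapped WT. In the RefSeq annotation *rki1* overlaps 21.8% of *ste9* on the opposite strand, and a non-coding RNA overlaps 50.2% of it, so part of these counts may belong to a partner gene. The median count per library was 540 for *rki1* and 304 for *ste9*. The deposited counts and FPKM imply a length of 3537 bases for *ste9*, against 2583 in RefSeq. The overlap in the gene model that was counted may thus be larger.

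*slp1* (SPAC821.08c), the Cdc20-type activator that turns the APC/C on at the metaphase to anaphase transition, differed most widely between genotypes. It had 7.75, 5.30 and 4.70 CPM in *htb1-E75Q* and 7.26, 5.32 and 6.08 CPM in *htb1-P102L*, against 17.6, 15.03 and 18.02 CPM in WT. It had 24.2, 28.8 and 26.0 CPM in *htb1-D67N* and 24.04, 23.4 and 20.7 CPM in *htb1-E112K*. The first pair of mutants lay wholly below WT and the second wholly above it. *slp1* fell, with a log2 fold change of -1.52 (SE 0.23, adjusted p = 0.000273, edgeR) in *htb1-E75Q* and of -1.43 (SE 0.16, adjusted p = 6.14e-05) in *htb1-P102L*, both DEGs with any 1 library left out. It rose by 0.71 (SE 0.15, adjusted p = 0.00419) in *htb1-D67N*, and passed with any 1 library left out. It rose by 0.46 (SE 0.14, adjusted p = 0.0328) in *htb1-E112K*, where the call held only without WT replicate 3 and the adjusted p was 0.0596 to 0.121 without any of the others.

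Smaller decreases were seen in the libraries labelled *set1*Δ, at 10.8, 12.1 and 10.1 CPM (-0.55, SE 0.14, adjusted p = 0.0129, edgeR), and in *htb1-G52D*, at 10.9, 14.4 and 12.0 CPM (-0.45, SE 0.16, adjusted p = 0.0464). The first call was lost without the labelled replicate 1 (adjusted p = 0.0545) or replicate 3 (0.0527). The second held only without *htb1-G52D* replicate 2, was at -0.32 (adjusted p = 0.141) without the libraries with *ura4* counts, and turns to 0.19 under total counts. In *htb1-E34K* the libraries had 6.83, 10.7 and 11.3 CPM, below every WT library, but the change of -0.78 (SE 0.23) had an adjusted p of 0.172. In the fit of all 24 libraries, which shares the spread over genotypes, that change was -0.82 with an adjusted p of 0.0105.

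Under total counts *slp1* in *htb1-P102L* was at -1.08 (adjusted p = 0.00282), in *htb1-E75Q* at -0.87 (adjusted p = 0.0916), in *htb1-D67N* at 1.10 (adjusted p = 0.0107) and in *htb1-E112K* at 0.82 (adjusted p = 0.0364). The opposite directions were thus present under both scalings, although the fall in *htb1-E75Q* no longer passed. By mean CPM the genotypes ran, from low to high, *htb1-E75Q*, *htb1-P102L*, *htb1-E34K*, the libraries labelled *set1*Δ, *htb1-G52D*, WT, *htb1-E112K* and *htb1-D67N*. Neighbours in the first 5 places overlapped in their libraries, while *htb1-G52D* and WT, WT and *htb1-E112K*, and *htb1-E112K* and *htb1-D67N* did not. In the RefSeq annotation non-coding RNAs on the opposite strand cover 61.1%, 14.2% and 4.6% of *slp1*, so that with the use of strand unknown part of its counts may belong to them. The same holds for *cdr2*, with up to 63.0% covered by 1 such RNA, *puc1* (29.9%), *cig1* (25.3%), *cdc13* (10.3%) and *cdc25* (6.4%).

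**Figure D4:**
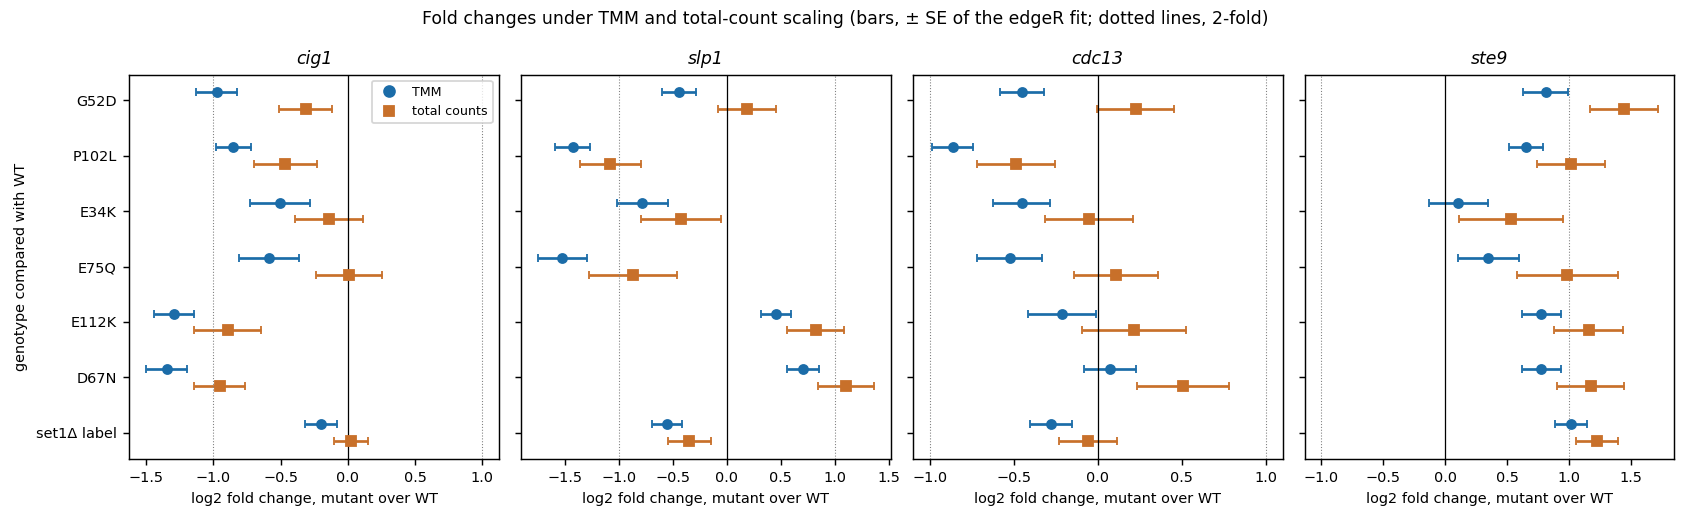
Log2 fold change over WT (horizontal axis) of *cig1*, *slp1*, *cdc13* and *ste9* in 7 genotypes (vertical axis), with TMM scaling (circles) and total-count scaling (squares); bars are ± SE of the edgeR fit and dotted lines mark 2-fold. Total counts move the values of a genotype to the right, so that *cdc13* in *htb1-G52D* goes to 0.23 while *slp1* in *htb1-P102L* stays at -1.08.

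Set directly against each other, the mutants differed in *slp1* more than in any other of the 10 genes. The 24 libraries were fitted together and the 21 pairs of genotypes other than WT compared. *slp1* was a DEG in 11 of the 21 pairs, *cig1* in 2, *puc1* in 1 and the other 7 genes in 0 pairs each, while the share of all 5030 genes that were DEGs in a pair ranged from 3.42% to 17.3%. The widest gap was between *htb1-E75Q* and *htb1-D67N*, by -2.16 (log2, SE 0.20, adjusted p = 8.88e-08, edgeR), a pair in which 12.4% of all genes were DEGs. *htb1-P102L* was at -2.09 against *htb1-D67N* (SE 0.20, adjusted p = 1.34e-07, with 10.1% of all genes DEGs) and at -1.88 against *htb1-E112K* (SE 0.20, adjusted p = 5.29e-07, with 10.3%). *htb1-E75Q* and *htb1-P102L* differed by 0.07 (SE 0.20, adjusted p = 0.844), and *htb1-E112K* and *htb1-D67N* by -0.21 (SE 0.18, adjusted p = 0.577).

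Within libraries the split appeared in part. The log2 ratio of *slp1* to *cdc13* counts, added after the data were seen, was -2.87, -3.07 and -3.43 in *htb1-E75Q* and -1.504, -1.12 and -1.73 in *htb1-D67N*, against -2.12, -2.18 and -2.01 in WT. The activator gene thus fell more than its cyclin target in *htb1-E75Q*, by 1.02 relative to WT, and stood 0.65 higher relative to it in *htb1-D67N* and 0.72 higher in *htb1-E112K*. None of these 3 groups overlapped WT (exact two-sided permutation p = 0.1 for each, the smallest that 3 against 3 allows). *htb1-P102L* (a mean difference of -0.56) and the libraries labelled *set1*Δ (-0.27) lay below WT, also without overlap (exact permutation p = 0.1 for each). *htb1-E34K* (exact permutation p = 0.2) and *htb1-G52D*, which differed from WT by 0.01 (exact permutation p = 1.0), overlapped WT. The ratio of *slp1* to *cig1* was higher than in WT by 2.05 in *htb1-D67N* and 1.75 in *htb1-E112K* and lower by 0.94 in *htb1-E75Q*, again without overlap. In *htb1-P102L* it differed by -0.58, but the libraries overlapped WT (exact permutation p = 0.2). In *htb1-G52D*, where both genes fell, it was 0.52 higher without overlap (exact permutation p = 0.1), and *htb1-E34K* and the libraries labelled *set1*Δ overlapped WT. The ratio of *cig1* to *cdc13* lay below WT without overlap in *htb1-D67N* (by 1.40), *htb1-E112K* (1.03) and *htb1-G52D* (0.52). Elsewhere it overlapped WT. These ratios are free of scaling but use the same counts as the calls above, so they are no independent support.

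The 2 transcripts whose level over the 24 libraries was most similar to that of each gene were listed by Pearson's r of log2 CPM, as a description over libraries that share genotype and scaling. Of those for *slp1*, *rho4*, a GTPase gene of septum breakdown, had r = 0.93. *cig1* ran closest to *mid1* (r = 0.89), which places the division site, and *his1* (r = 0.88). *cdc13* ran closest to the coat protein genes *cop1* (0.90) and *sec26* (0.84), and *cdc2* to the checkpoint gene *rad17* (0.81) and the kinetochore gene *spc25* (0.71). The values were 0.91 and 0.88 for *hsp3102* and SPCC16A11.15c with *puc1*, 0.82 and 0.80 for SPCC297.05 and *vma2* with *cdc25*, 0.83 for *mtf2* with *cdr2*, and 0.84 and 0.83 for SPAC14C4.01c and *wsp1* with *ste9*. The higher of the pair was lowest for *wee1*, with *shd1* (0.78) and *sol1* (0.77), and for *rum1*, with *mug86* (0.77) and *htb1* (0.72). Among the 10 genes themselves the highest r was 0.69, between *cdc13* and *slp1*.

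Genes of the same stages were counted by lists, under TMM scaling. The share of all genes that were DEGs is given above for each genotype. Of 22 genes of the mitotic and cytokinesis transcription programme, 21 were tested in *htb1-P102L* and *htb1-G52D* and 22 elsewhere. In *htb1-P102L* 1 rose and 7 fell (6 DEGs, all lower, median log2 fold change -0.36 against 0.03 for all genes). In *htb1-E75Q* 3 rose and 7 fell (1 DEG higher and 5 lower, median -0.09 against 0.08). In *htb1-D67N* 6 rose and 3 fell (2 DEGs each way, median 0.22 against 0.08), and in *htb1-E112K* 3 rose and 4 fell (2 DEGs, both lower, median -0.12 against 0.03). In *htb1-G52D* 1 rose and 8 fell (4 DEGs, all lower, median -0.33 against 0.09), and in the libraries labelled *set1*Δ 2 rose and 6 fell (1 DEG, lower, median -0.22 against 0.01). The number that passed was 8 of 21 in *htb1-P102L*, 9 of 21 in *htb1-G52D* and 10 of 22 in *htb1-E75Q*. Of all genes tested, 38.1%, 43.4% and 36.1% passed there. In *htb1-D67N*, *htb1-E112K* and the libraries labelled *set1*Δ it was 9, 7 and 8 of 22, against 35.8%, 27.8% and 26.4%. With lists of this size no more is read from these counts.

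In the cell separation programme, *adg2* had 105 ± 55.8 CPM in *htb1-E75Q*, 121 ± 34.5 CPM in *htb1-P102L* and 710.0 ± 147 CPM in *htb1-D67N*, against 492 ± 62.4 CPM in WT (SD, n = 3 each). It fell by 2.24 (SE 0.35, adjusted p = 0.000377, edgeR) in *htb1-E75Q* and rose by 0.60 (SE 0.20, adjusted p = 0.0359) in *htb1-D67N*, the directions of *slp1* in the same mutants. In *htb1-E112K*, where *slp1* also rose, *adg2* was at 0.12 (SE 0.17, adjusted p = 0.626) and did not pass. The septum glucanase gene *eng1* and *adg1* did not share the split between *htb1-E75Q* and *htb1-D67N*. *eng1* fell, with a log2 fold change of -3.58 (SE 0.25, adjusted p = 2.51e-06) in *htb1-P102L* and of -1.28 (SE 0.19, adjusted p = 0.0006) in *htb1-D67N*, where it had 63.9 ± 3.60 CPM, against 163 ± 46.8 CPM in WT. *adg1* fell, with a log2 fold change of -1.31 (SE 0.19, adjusted p = 0.000552) in *htb1-D67N* and of -1.11 (SE 0.19, adjusted p = 0.00107) in *htb1-P102L*.

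Of 24 genes of the APC/C, separase, securin and the spindle checkpoint, 22 or 23 were tested. The number that passed was 10 of 23 in *htb1-G52D* and 6 of 23 in *htb1-E75Q*, against 43.4% and 36.1% of all genes tested. It was 3 of 23 in *htb1-P102L*, 2 of 23 in *htb1-E112K* and 3 of 23 in *htb1-D67N*, against 38.1%, 27.8% and 35.8%. In the libraries labelled *set1*Δ it was 5 of 22, against 26.4%. In *htb1-G52D* 9 rose and 1 fell (6 DEGs, all higher, median 0.85 against 0.09 for all genes), in *htb1-E75Q* 6 rose (4 DEGs, median 0.37) and in the libraries labelled *set1*Δ 5 rose (2 DEGs, median 0.39). In *htb1-P102L* 3 rose, in *htb1-E112K* 2 rose, and in *htb1-D67N* 2 rose and 1 fell. The separase gene *cut1* had 12.7 ± 3.25 CPM in *htb1-G52D*, 12.5 ± 2.04 CPM in *htb1-P102L* and 10.1 ± 1.80 CPM in the libraries labelled *set1*Δ, against 2.81 ± 0.60 CPM in WT (SD, n = 3 each), with log2 fold changes of 2.17, 2.17 and 1.90 (adjusted p = 0.000196, 1.62e-05 and 0.000161, edgeR). The APC/C subunit gene *cut4* encodes a part of the complex that Slp1 activates. It had 36.2 ± 2.65 CPM in *htb1-P102L*, against 8.49 ± 5.16 CPM in WT (SD, n = 3 each), whose libraries spread widely. *cut4* rose by 2.12 (SE 0.31, adjusted p = 0.000389, edgeR) in *htb1-P102L*, where *slp1* fell. It was at -0.27 (SE 0.35, adjusted p = 0.581) in *htb1-D67N*.

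Of 20 further partners and regulators of Cdc2, 4 rose and 4 fell in *htb1-G52D*, 4 rose and 2 fell in *htb1-P102L*, 4 rose in *htb1-E75Q*, 3 rose and 1 fell in *htb1-E112K*, 4 rose and 1 fell in *htb1-D67N* and 2 fell in the libraries labelled *set1*Δ. The number that passed was 8 of 20 in *htb1-G52D*, against 43.4% of all genes tested, and 6 of 20 in *htb1-P102L*, against 38.1%. It was 4 of 20 in *htb1-E75Q* (36.1% of all genes) and in *htb1-E112K* (27.8%). It was 5 of 20 in *htb1-D67N* (35.8%) and 2 of 20 in the libraries labelled *set1*Δ (26.4%). The median log2 fold change of the 20 genes lay between -0.11 in *htb1-P102L* and 0.15 in *htb1-D67N*. *cut12*, a spindle pole gene that promotes mitotic entry, was a DEG in 5 of the 7 genotypes. It had 10.2 ± 1.23 CPM in *htb1-G52D* and 4.55 ± 0.33 CPM in *htb1-D67N*, against 1.19 ± 0.31 CPM in WT (SD, n = 3 each), with log2 fold changes of 3.08 (SE 0.25, adjusted p = 3.28e-05, edgeR) and 1.99 (SE 0.27, adjusted p = 0.000329).

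Of 15 genes of the G1/S programme, 5 rose and 1 fell in *htb1-D67N*, 4 rose and 3 fell in *htb1-G52D* and in *htb1-E75Q*, 4 rose and 1 fell in the libraries labelled *set1*Δ, 3 rose and 4 fell in *htb1-P102L* and 2 rose and 3 fell in *htb1-E112K*. The number that passed was 7 of 15 in *htb1-G52D*, *htb1-P102L* and *htb1-E75Q*, against 43.4%, 38.1% and 36.1% of all genes tested. It was 6 of 15 in *htb1-D67N*, against 35.8%. In *htb1-E112K* and the libraries labelled *set1*Δ it was 5 of 15, against 27.8% and 26.4%. The replication licensing gene *cdt1* rose most in *htb1-D67N*, by 2.31 (SE 0.29, adjusted p = 0.000217, edgeR), at 4.6 ± 1.18 CPM, against 0.97 ± 0.04 CPM in WT (SD, n = 3 each). *rep1*, encoding an activator of G1/S transcription, rose by 0.98 to 1.503 in the 6 genotypes other than *htb1-E34K*. Of 6 other cyclin genes, at most 2 passed in any genotype, against 26.4% to 43.4% of all genes outside *htb1-E34K*. In *htb1-E34K* 0 genes of these 5 lists passed the adjusted p by edgeR, and the median log2 fold change was 0.56 over the G1/S genes, 0.40 over the APC/C and checkpoint genes and -0.15 over the mitotic programme, against 0.09 for all genes. An unadjusted p under 0.05 was reached there by 6 genes of the G1/S list, 4 of the APC/C list, 2 of the mitotic programme, 1 of the Cdc2 partners and 0 of the other cyclin genes. Of all genes, 18.5% reached it.

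Under total counts the falls in these lists were fewer and many rises were added. In *htb1-G52D* the genes that rose went from 9 to 15 in the APC/C list. They went from 4 to 10 among the Cdc2 partners and from 4 to 8 in the G1/S list. Of the mitotic programme, 6 genes then fell in *htb1-P102L*, 4 in the libraries labelled *set1*Δ, 3 in *htb1-G52D* and in *htb1-E75Q* and 2 in *htb1-E112K* and in *htb1-D67N*. Its median in *htb1-P102L* was 0.01, against 0.40 for all genes, and in *htb1-G52D* 0.34, against 0.77. The APC/C list kept a median above that of all genes in every genotype, at 1.49 against 0.77 in *htb1-G52D*. *cut12*, *cdt1*, *cut1* and *eng1* kept the directions given above, and so did *cut4* in *htb1-P102L*, *adg1* and *adg2*. *cut4* in *htb1-D67N* turned to 0.18 (adjusted p = 0.758).

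**Figure D5:**
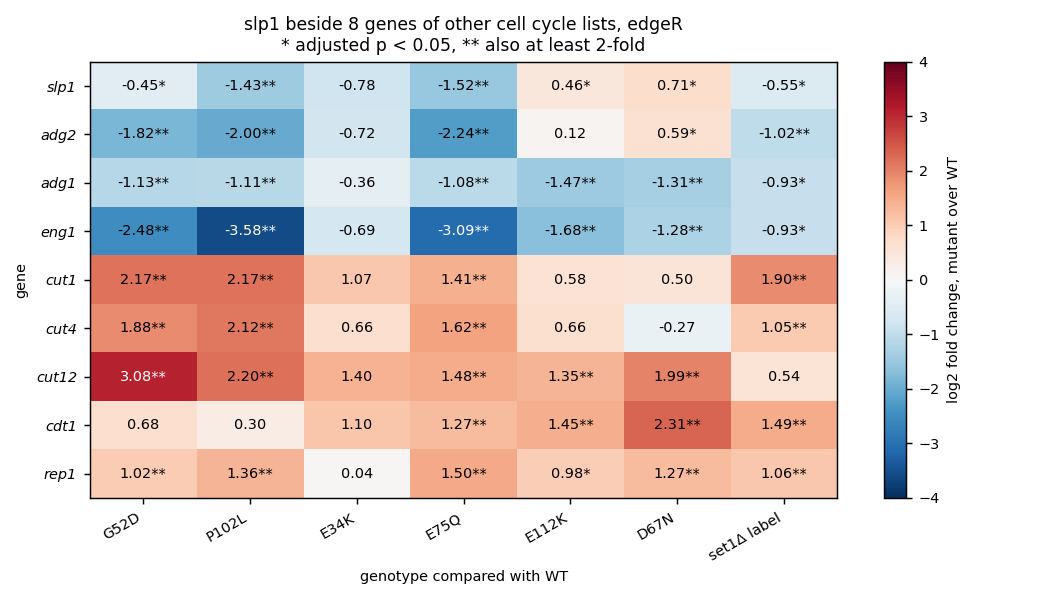
Log2 fold change over WT of *slp1* and of 8 genes from the other cell cycle lists (rows) in 7 genotypes (columns), from edgeR with TMM scaling, 3 libraries against 3. The *adg2* row changes sign between *htb1-E75Q* (-2.24) and *htb1-D67N* (0.60) as the *slp1* row does. In *htb1-E112K*, where *slp1* rose, *adg2* is at 0.12 and did not pass. *eng1* is negative in all 7 genotypes and *cut12* positive.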

How the data were processed

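Reads were filtered with fastp, freed of rRNA reads with Bowtie2 and aligned with HISAT2 to an Ensembl genome by the authors, who deposited raw read counts per gene and library and FPKM from StringTie. The counting program, its version and its use of strand are not given in the sources used here. The deposited tables also hold the authors' fold changes, p-values and adjusted p-values, which were not used. Groups followed the sample labels. The 10 genes and the gene lists were chosen with earlier results of these data known. Named genes are the 10, *set1* and *htb1*, list genes that were DEGs in at least 4 of 7 comparisons, and the 2 genes most similar to each of the 10. Some of these genes are not reported here.

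Counts were fitted in edgeR 4.0.16 (limma 3.58.1, R 4.3.3) with filterByExpr, TMM scaling, glmQLFit and glmQLFTest. Pairs of mutants were taken from 1 fit of 24 libraries. CPM use TMM factors of all libraries and so differ slightly from the fitted folds. In data simulated from the real means, 97% to 100% of 200 genes changed by a log2 fold of 2 were called, with at most 3 false calls. The simulation gave every gene the same spread and changed equal numbers of genes each way. No change of the 10 genes was that large, the largest being -1.52. The simulation therefore does not give the power for these changes, or for the wider spread of *htb1-E34K* and *htb1-E75Q*. Alternatives were DESeq2 1.42.0, its size factors, total counts, a replicate block, a minimum of 10 counts in every library or no low-count filter, 1 fit of all libraries, a gene-length offset (loess, span 0.5), leaving out libraries with *ura4* counts, and leaving out each library. Ratios within libraries and total-count changes relative to the median gene were added after seeing the data. SDs are over 3 libraries, and the depth of 18935513 to 28181070 counts limits precision most for *puc1* among the 10 genes. The list genes *cdt1*, *cut12* and *rep1* were scarcer in WT, at 0.97, 1.19 and 1.45 CPM against 2.61 CPM for *puc1*, so their folds start from low counts. The RefSeq annotation (ASM294v3) served only for names and overlaps. Its build may not be that of the authors, so no coordinates or sequences are given. Tables and plots were made in Python 3.11.15 (matplotlib 3.10.9, SciPy 1.17.1, pandas 2.3.3).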

Additional observations from a re-analysis of the deposited data

How the results depend on the processing

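The number of the 10 genes that passed was recomputed under each alternative. Under total counts *htb1-G52D* had 3 DEGs and 3 genes past the adjusted p, *htb1-P102L* 2 and 3, *htb1-E112K* 2 DEGs, the libraries labelled *set1*Δ 2 DEGs, and *htb1-E75Q* 1 gene past the adjusted p. The changes that turned were *cdc13* in *htb1-E75Q* to 0.11 and in *htb1-G52D* to 0.23, *cdc25* in *htb1-G52D* to 0.18 and *slp1* in *htb1-G52D* to 0.19. With DESeq2, with its size factors and with the gene-length offset the DEGs became 1 in *htb1-G52D*, 1 in *htb1-D67N* and 0 in the libraries labelled *set1*Δ, since *cig1*, *puc1* and *ste9* lie near 2-fold. In 1 fit of all libraries the DEGs became 1 in *htb1-D67N* and 0 in the libraries labelled *set1*Δ, while 3 genes in *htb1-E34K* and 4 in *htb1-E75Q* passed the adjusted p. That edgeR fit lost 4 of the 25 calls. They were *cdc2* (adjusted p = 0.0866) and *cdr2* (0.0827) in *htb1-P102L*, and *slp1* in *htb1-G52D* (0.0605) and *htb1-E112K* (0.105). DESeq2 also lost *cdc2* in *htb1-P102L* (adjusted p = 0.0961). In *htb1-D67N* under total counts *rum1* also passed, and *ste9* (1.17) and *slp1* (1.10) were DEGs. Without the libraries with *ura4* counts *htb1-G52D* had 1 DEG. Leaving out 1 library gave 0 to 1 DEGs in *htb1-G52D* and the libraries labelled *set1*Δ, and 1 to 2 in *htb1-D67N*. The genes past the adjusted p were then 2 to 4 in *htb1-G52D*, 1 to 2 in *htb1-E75Q*, 2 to 5 in *htb1-E112K* and 2 to 5 in the libraries labelled *set1*Δ. Of the 25 changes that passed, 16 did so in all 6 such fits. The replicate numbers did not pair the samples (correlations of the same number in mutant and WT from -0.188 to 0.211). With a replicate block 3 genes passed in *htb1-G52D*, where *cdc25* and *slp1* were lost, and of the other calls *cdc13* in *htb1-E75Q* and *slp1* in *htb1-E112K* were lost. Counts of DEGs between pairs of mutants were 12 to 14 over 3 scalings. A promoter window was listed as an alternative and was not run, since no promoter sequence of the authors' build was used here. Elsewhere the cause was not tested.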
